A study of Mus musculus with 12 samples.

Results

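The 10 WNT ligand genes Wnt2, Wnt2b, Wnt3, Wnt4, Wnt5a, Wnt5b, Wnt6, Wnt7b, Wnt10a and Wnt11 were followed across 12 mouse colon libraries. They were taken by symbol from the 24054 genes counted in each library, and all 10 were found. Poly(A) RNA had been sequenced from 3 groups of 4 libraries. The BTPRZ-T group was tumour of the genotype BrafV600E; Tgfbr2-/-; Rnf43-/-/Znrf3-/-; p16 Ink4a-/-. The BT-T group was tumour of the genotype BrafV600E; Tgfbr2-/-. The N group was wild type normal colon, which the series describes as adjacent to tumour. Both tumour groups had been grown from engrafted colonic organoids and share the activated kinase allele BrafV600E and the loss of Tgfbr2, a receptor for TGF-beta. The BTPRZ-T tumours also lacked the ubiquitin ligases Rnf43 and Znrf3 and the cell cycle inhibitor p16 Ink4a. The strain of every library is labelled NSG, a mouse without T, B and natural killer cells, whose other stromal cells remain. The sources do not say from how many organoid lines the tumours grew, or whether any of the libraries within a group share an animal. All p-values therefore measure the spread between these libraries, which may in part be technical.

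WNT ligands are secreted proteins that the membrane enzyme Porcn modifies with a lipid and the carrier Wls brings to the cell surface. They bind Frizzled receptors, and with the co-receptors Lrp5 and Lrp6 they stabilise beta-catenin, which drives the transcription of target genes, while some ligands act through Ror and Ryk receptors without beta-catenin. In the colon, stem cells at the crypt base depend on WNT ligands, many of them made by cells of the underlying mesenchyme, and Rnf43 and Znrf3 limit the response by removing Frizzled receptors from the cell surface.

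The lipid is attached to a serine that the whole family keeps, and the coding sequence around it is shown for the 10 genes. The stretch was found by searching each translated reading frame for the amino acids C, H, G, any, S, G, S and C. The likeness of the amino acids was therefore set by the search, while the codons used for them were free to differ. The lines give 8 codons from the longest open reading frame of a GENCODE M21 transcript of each gene (GRCm38), 5′ to 3′ on the coding strand, with the codon of this serine in capitals.
Wnt2: tgtcatggtgtgAGTggctcctgt
Wnt2b: tgtcacggtgtgAGTggctcctgt
Wnt3: tgccacgggttgTCCggcagctgc
Wnt4: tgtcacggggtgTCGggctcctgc
Wnt5a: tgtcatggagtgTCTggctcctgt
Wnt5b: tgtcacggagtcTCCgggtcctgc
Wnt6: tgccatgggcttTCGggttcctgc
Wnt7b: tgtcacggtgtgTCAggctcctgt
Wnt10a: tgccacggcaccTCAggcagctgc
Wnt11: tgccatggggtgTCTggctcctgc
The search pattern was met at 1 place in each gene. The serine was codon 212 in Wnt2, Wnt3 and Wnt4, 213 in Wnt7b and 268 in Wnt10a. The 10 genes used 5 different codons for it, 2 genes each. Wnt2 and Wnt2b, which share the codon AGT, differed at 1 base of the stretch (T6C, reference Wnt2, counted from 1 at the 5′ end).

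Depth was alike over the groups, with 15.7M to 21.2M gene reads in BTPRZ-T, 18.8M to 26.1M in BT-T and 16.5M to 19.2M in N. The fewest genes with a read were found in BTPRZ-T replicate 4 (13450), N replicate 2 (14175) and BTPRZ-T replicate 1 (14697), against 16131 to 17266 in the other libraries. Epithelial markers were abundant in every library, with summed levels of 8195 to 17925 CPM over 10 genes in BTPRZ-T, 9403 to 11384 in BT-T and 11663 to 13612 in N (CPM, reads relative to the gene reads of the library in counts-per-million units, after TMM scaling). Counts over whole genes cannot show the edits. Rnf43 stood at 82.9 to 193 in BTPRZ-T, 56.9 to 87.2 in BT-T and 19.3 to 74.6 CPM in N. Znrf3 stood at 16.7 to 37.3 in BTPRZ-T, 19.7 to 30.4 in BT-T and 1.90 to 39.1 CPM in N. Tgfbr2 and Braf were likewise detected in every library of all 3 groups. Cdkn2a, which encodes p16 Ink4a, stood at 18.8 to 31.4 in BTPRZ-T, 8.21 to 15.8 in BT-T and only 0.230 to 0.354 CPM in N.

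In both tumour groups Wnt7b, Wnt2 and Wnt11 transcripts were higher than in normal colon, with log2 fold changes of 3.09 to 4.86. Wnt4 was higher in BT-T than in N, and Wnt2b was lower in BTPRZ-T than in N. Wnt10a was read in all 4 BTPRZ-T libraries, with at least 31 reads in each, in 3 BT-T libraries and in 1 N library. Of the 10 genes, 9 passed the filter on low counts and were tested with the 14860 genes that did so, and Wnt3 did not pass. A gene was called when its Benjamini-Hochberg adjusted p in edgeR's quasi-likelihood test was under 0.05. In BTPRZ-T against N, 3 of the 9 were called higher, against 5.66% of all genes tested, and 1 was called lower, against 6.18%. The median log2 fold change of the 9 was 0.85, against -0.10 over all genes. Of the same 9, 4 were called higher in BT-T against N, next to 5.67% of all genes, and 0 lower, against 2.9%. Here the median was 1.14, against -0.10 over all genes. Both comparisons share the N libraries. The count of 4 calls in BTPRZ-T against N was 2 without BTPRZ-T replicate 2, N replicate 3 or N replicate 4, and 1 without N replicate 1. The count of 4 in BT-T against N was 2 without BT-T replicate 2, 3 or 4 or N replicate 1 or 3. These counts cover the genes that passed the filter, and a gene read in 1 group alone passed through that group, so they are given as a description.

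**Figure D1:**
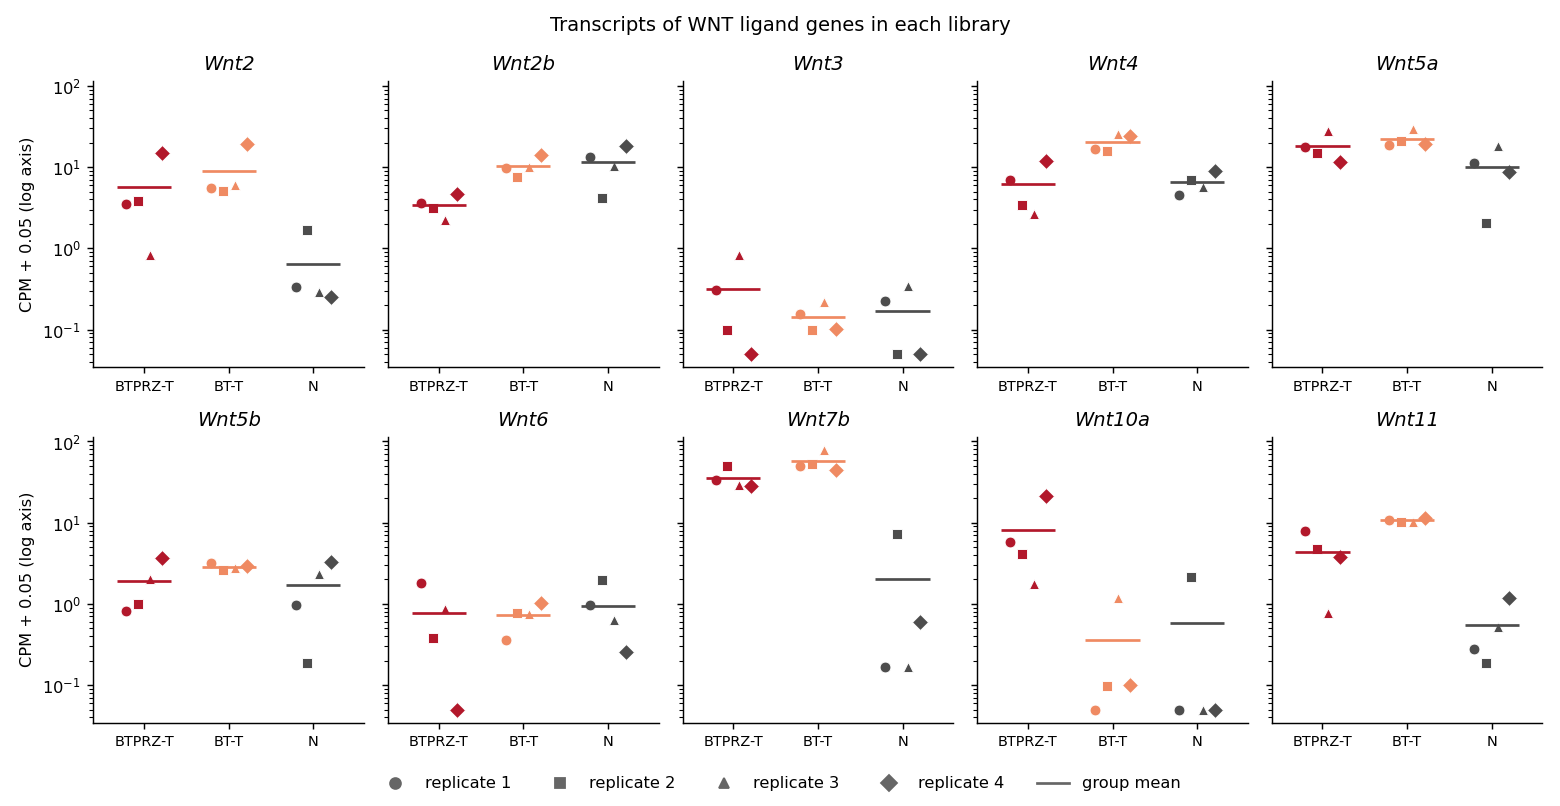
Level of each of the 10 WNT ligand genes in every library, as CPM + 0.05 on a log axis, with 1 symbol per replicate and a bar at the group mean. Wnt7b stands at 28.0 CPM or more in all 8 tumour libraries and at 7.11 CPM or less in the N libraries, and the Wnt10a points of BTPRZ-T lie above those of BT-T.

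Wnt7b (chr15:85535437-85582473, minus strand, GRCm38) is a ligand that signals through beta-catenin, known for its action on brain blood vessels and in the lung. It stood at 33.8, 49.9, 29.2 and 28.0 CPM in BTPRZ-T replicates 1 to 4, at 50.2, 53.0, 79.5 and 44.6 CPM in BT-T, and at 0.115, 7.11, 0.118 and 0.540 CPM in N. Neither tumour group overlapped with N, where replicate 2 was far above the other 3. The log2 fold change was 4.17 ± 0.99 (SE) in BTPRZ-T against N (edgeR adjusted p = 0.0174) and 4.86 ± 1.02 in BT-T against N (adjusted p = 0.0112). Without N replicate 2 these were 7.12 (adjusted p = 1.31e-05) and 7.81 (adjusted p = 2.21e-05). With BTPRZ-T and N alone in the fit, the adjusted p was 0.0890. The gene AU022754 overlaps Wnt7b on the other strand. The libraries keep the strand, and reads on the strand opposite to Wnt7b came to at most 8 in any library.

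Wnt2 (chr6:17988940-18030585, minus strand) is a mesenchymal ligand of lung and gut development that signals through beta-catenin. Its levels were 3.42, 3.73, 0.771 and 15 CPM in BTPRZ-T, 5.47, 5.02, 5.91 and 19 CPM in BT-T, and 0.288, 1.62, 0.236 and 0.202 CPM in N. Replicate 4 was highest in both tumour groups. All BT-T libraries exceeded all N libraries, while BTPRZ-T replicate 3 lay below N replicate 2. Wnt2 was higher in BTPRZ-T (log2 fold change 3.29 ± 0.97, edgeR adjusted p = 0.0456) and in BT-T (3.91 ± 0.99, adjusted p = 0.0294) than in N. The BTPRZ-T call was lost without BTPRZ-T replicate 1, 2 or 4 (adjusted p = 0.0569, 0.0657 and 0.139), any BT-T replicate from 1 to 4 (0.0629, 0.0628, 0.0646 and 0.0535), or N replicate 1, 3 or 4 (0.120, 0.116 and 0.107). The BT-T call was lost without BT-T replicate 2, 3 or 4 (0.0533, 0.0542 and 0.0943) or N replicate 1, 3 or 4 (0.0840, 0.0745 and 0.0646). Calls of Wnt2 were also lost in BTPRZ-T with RLE factors (0.0514), limma and voom (0.137), BTPRZ-T and N alone (0.147) and the replicate block (0.0839), and in BT-T with voom (0.0505).

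Wnt2b (chr3:104945272-104961921, minus strand), a close relative of Wnt2, is a mesenchymal ligand that sustains stem cells of the intestine. It stood at 3.55, 3.11, 2.2 and 4.58 CPM in BTPRZ-T, 9.79, 7.60, 9.87 and 14.1 CPM in BT-T, and 13.1, 4.13, 10.2 and 18.2 CPM in N. The BTPRZ-T libraries lay below all BT-T libraries and below N replicates 1, 3 and 4, and overlapped with N replicate 2. Wnt2b was lower in BTPRZ-T than in N, with a log2 fold change of -1.76 ± 0.44 (edgeR adjusted p = 0.0213). In BT-T against N it was -0.14 ± 0.42 (adjusted p = 0.880). The annotated gene Gm43846 overlaps Wnt2b on the same strand. Reads on the strand opposite to Wnt2b, which these counts leave out, were 15.1% of both strands in BTPRZ-T, 9.06% in BT-T and 8.73% in N. In BTPRZ-T replicate 3 there were 34 of them, beside 40 counted reads. The part of this overlap and of these reads in the Wnt2b result was not tested. The BTPRZ-T call was lost without BTPRZ-T replicate 2 or 3 (adjusted p = 0.0591 and 0.0524) or N replicate 1 or 4 (0.0585 and 0.0628), with limma and voom (0.0730) and with BTPRZ-T and N alone in the fit (0.0958). Smooth muscle markers were also lower, with 5 of 8 called lower in BTPRZ-T than in N, against 6.18% of all genes. Their summed levels were 438 to 4741 in BTPRZ-T, 3504 to 5731 in BT-T and 6910 to 18834 CPM in N. N replicate 2 had the highest sum and the lowest Wnt2b level of its group. By the mean of log2(CPM + 0.5) over the 8 markers, N replicate 3 (9.73) stood above N replicate 2 (9.54). All BT-T sums lay below all N sums, and Wnt2b overlapped between those groups. The part of smooth muscle in the Wnt2b result was not tested.

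Wnt10a (chr1:74791516-74804179, plus strand) is a ligand of skin, hair and tooth development. It had 5.68, 4.07, 1.71 and 21.2 CPM in BTPRZ-T, 0, 0.0487, 1.12 and 0.0507 CPM in BT-T, and 0, 2.10, 0 and 0 CPM in N. In reads, BTPRZ-T held 689 over the group, BT-T 29, of which 27 lay in replicate 3, and N 31, all in replicate 2. Every BTPRZ-T library lay above every BT-T library, and BTPRZ-T replicate 3 lay below N replicate 2. Against BT-T, the log2 fold change of BTPRZ-T was 4.70 ± 1.77 with an edgeR adjusted p of 0.206. Against N it was 3.96 ± 1.72 with an adjusted p of 0.168, and neither difference was called. Without N replicate 2 the adjusted p was 0.0381 and 0.0102, and without BTPRZ-T replicate 4 it was 0.304 and 0.355. N replicate 2 also held the most transcript of 8 squamous epithelial markers among the N libraries, 16.4 CPM in sum against 0.576 to 2.43 CPM in the other 3, with 4 of the 8 at 0 reads in each N library. In the tumours these markers summed to 21 to 53.7 in BTPRZ-T and 12.6 to 67.7 CPM in BT-T, and their part in the Wnt10a and Wnt7b levels was not tested.

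Wnt6 (chr1:74771892-74785322, plus strand), a ligand of kidney and skin development, lies 6193 bases before Wnt10a on the same strand with no annotated gene between them. Its levels were 1.74, 0.335, 0.826 and 0 CPM in BTPRZ-T, 0.314, 0.730, 0.708 and 0.963 CPM in BT-T, and 0.921, 1.90, 0.591 and 0.202 CPM in N. The 3 groups overlapped. The log2 fold changes were -0.33 ± 1.06 in BTPRZ-T against N, -0.41 ± 1.06 in BT-T against N and 0.09 ± 1.06 in BTPRZ-T against BT-T, none of them called. In BTPRZ-T replicate 4, which had the highest Wnt10a level of all libraries, Wnt6 had no read. Wnt3 (chr11:103774150-103817957, plus strand), the ligand that Paneth cells give to small intestinal stem cells, was near the detection limit, with 19 reads in BTPRZ-T, 9 in BT-T and 8 in N over the 4 libraries of each group. The highest library was BTPRZ-T replicate 3, with 14 reads.

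Wnt11 (chr7:98835112-98855195, plus strand) is a ligand of kidney branching and of cell movements in the embryo, and acts mostly without beta-catenin. It stood at 7.94, 4.64, 0.716 and 3.71 CPM in BTPRZ-T, 10.9, 10.1, 10.2 and 11.5 CPM in BT-T, and 0.230, 0.135, 0.473 and 1.15 CPM in N. The BT-T libraries lay close together and above all others, and BTPRZ-T overlapped with N through replicate 3. In BTPRZ-T against N its log2 fold change was 3.09 ± 0.74 (edgeR adjusted p = 0.0181), and in BT-T against N it was 4.42 ± 0.77 (adjusted p = 0.0041). The BT-T call held in each of the 25 alternative fits. The BTPRZ-T call was lost without N replicate 1 or 3 (adjusted p = 0.0585 and 0.0513), with limma and voom (0.0593), with BTPRZ-T and N alone in the fit (0.122) and with the replicate number as a block (0.0542).

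Wnt4 (chr4:137277489-137299726, plus strand) is known for its role in kidney and female reproductive tract development. Levels were 6.97, 3.35, 2.59 and 11.8 CPM in BTPRZ-T, 16.8, 15.6, 25.4 and 23.9 CPM in BT-T, and 4.55, 6.84, 5.67 and 8.84 CPM in N. BT-T lay above both other groups without overlap, and BTPRZ-T spread on both sides of N. Wnt4 was higher in BT-T than in N (log2 fold change 1.66 ± 0.45, edgeR adjusted p = 0.0411). The difference between BTPRZ-T and N was -0.06 ± 0.44 (adjusted p = 0.956). Without the 3 libraries with the fewest genes it was -1.03 and was called lower (edgeR adjusted p = 0.0469). The BT-T call was lost without BT-T replicate 1, 2, 3 or 4 (adjusted p = 0.0634, 0.0761, 0.122 and 0.106), N replicate 1 or 3 (0.107 and 0.0898) or BTPRZ-T replicate 1 (0.0526).

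Wnt5a (chr14:28504750-28527448, plus strand) is the ligand best known for signalling without beta-catenin, through Ror2, and takes part in colonic wound repair. It had 17.7, 15, 28.1 and 11.4 CPM in BTPRZ-T, 18.6, 21.1, 29.6 and 19.1 CPM in BT-T, and 11.2, 2.03, 18.1 and 8.57 CPM in N. All BT-T libraries exceeded all N libraries by a small margin, replicate 3 was highest in each group, and BTPRZ-T overlapped with N. The log2 fold change was 0.85 ± 0.50 in BTPRZ-T against N (edgeR adjusted p = 0.327) and 1.14 ± 0.51 in BT-T against N (adjusted p = 0.190). Wnt5b (chr6:119432531-119544347, minus strand), its close paralog, ranged over 0.774 to 3.67 in BTPRZ-T, 2.53 to 3.17 in BT-T and 0.135 to 3.24 CPM in N, with no call in any comparison. The spread of Wnt5b was narrow in BT-T and wide in the other 2 groups.

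Between the tumour groups none of the 9 tested genes was called by edgeR in BTPRZ-T against BT-T, and the test made few calls at all, in 0.754% of all genes, 0.155% higher and 0.599% lower. At an unadjusted p under 0.05 it found 2564 of the 14860 genes. This comparison is also the test of whether both tumour effects against N differ. The median log2 fold change of the 9 was -0.62, against -0.03 over all genes. The libraries did not overlap for 1 of the 9 genes higher in BTPRZ-T, which was Wnt10a, against 11.5% of all genes, and for 3 lower, against 12.7%. Those 3 were Wnt2b, with a log2 fold change of -1.62 ± 0.43 (adjusted p = 0.0961), Wnt4, with -1.72 ± 0.45 (adjusted p = 0.0952), and Wnt11, with -1.33 ± 0.67 (adjusted p = 0.324). Without N replicate 2, which enters the shared estimate of spread, Wnt2b (adjusted p = 0.00822) and Wnt4 (0.0228) were called lower and Wnt10a was called higher. That fit called 2714 of 15045 genes between the tumours. Wnt4 was also called lower without BTPRZ-T replicate 4 (0.0308). By DESeq2 2 genes were called, Wnt2b (0.00491) and Wnt4 (0.00558), both lower in BTPRZ-T. Wnt7b, at 35.2 ± 10.1 CPM in BTPRZ-T and 56.8 ± 15.5 CPM in BT-T (SD, n = 4 each), differed by -0.69 ± 0.85 on the log2 scale (adjusted p = 0.688).

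Against N, the libraries of BTPRZ-T did not overlap for 1 of the 9 genes, higher, against 6.88% of all genes, and for 0 lower, against 7.64%. For BT-T and N there were 5 such genes higher, against 13.4% of all genes, and 0 lower, against 9.02%. They were the 4 called genes and Wnt5a.

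**Figure D2:**
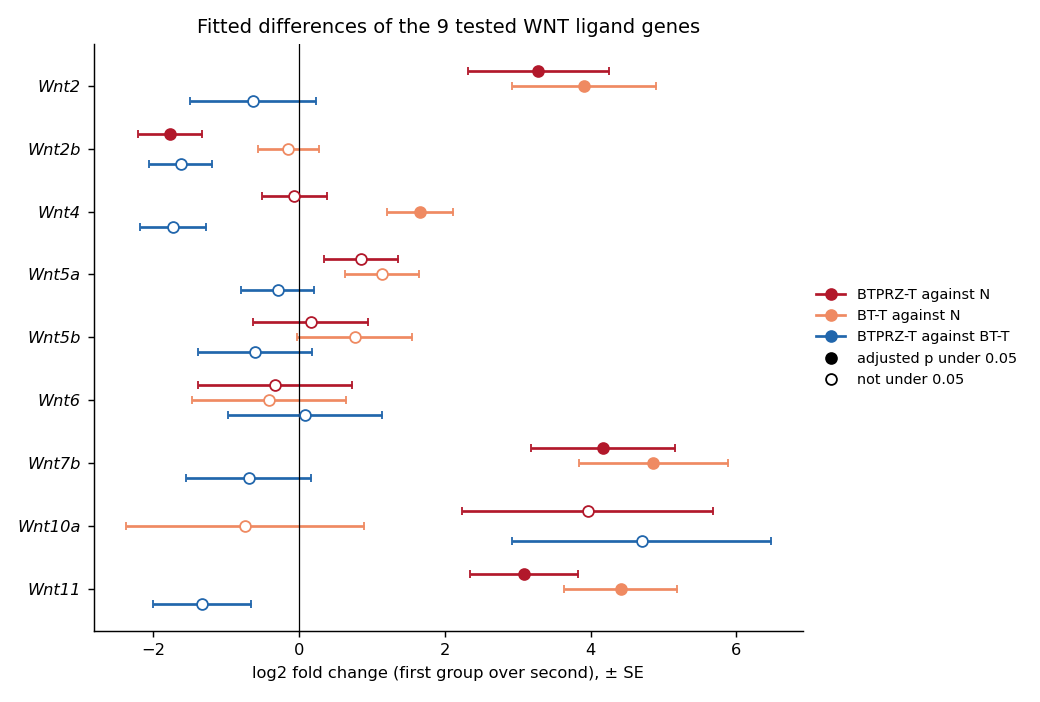
Log2 fold change ± SE of the 9 tested WNT ligand genes in the 3 comparisons (x axis, first group over second), with filled points for an adjusted p under 0.05. Wnt2, Wnt7b and Wnt11 have filled points right of 0 for both tumour groups against N, Wnt2b has 1 left of 0, and no point of BTPRZ-T against BT-T is filled.

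Promoter sequence could be read from RefSeq (GRCm38.p6) for 7 of the 10 genes, with 10 promoters in all. There were no entries for Wnt5a, Wnt7b and Wnt10a. Shown are 4 promoters of genes that moved together or apart, Wnt2, Wnt4 and Wnt11, which were higher in BT-T, and Wnt2b, which was lower in BTPRZ-T. Each holds 300 bases, 250 before to 50 after the start that RefSeq gives the gene, 5′ to 3′ on the gene's strand. For Wnt2, Wnt2b and Wnt4 that start is not the end of the GENCODE span given above. Wnt2 is chr6:18030396-18030695 (minus), Wnt2b is chr3:104961660-104961959 (minus), Wnt4 is chr4:137277385-137277684 (plus) and the first of 2 Wnt11 promoters is chr7:98834862-98835161 (plus). Capitals mark every match on either strand to any of 4 motifs. The motif of the TCF/LEF factors, the partners of beta-catenin on DNA, was searched as CTTTGAT. That of AP-1, a factor downstream of the kinase cascade that Braf belongs to, was searched as TGACTCA. The core promoter element known as the TATA box was searched as TATAAA. The last motif, the GC box bound by Sp factors, was searched as GGGCGG.
Wnt2: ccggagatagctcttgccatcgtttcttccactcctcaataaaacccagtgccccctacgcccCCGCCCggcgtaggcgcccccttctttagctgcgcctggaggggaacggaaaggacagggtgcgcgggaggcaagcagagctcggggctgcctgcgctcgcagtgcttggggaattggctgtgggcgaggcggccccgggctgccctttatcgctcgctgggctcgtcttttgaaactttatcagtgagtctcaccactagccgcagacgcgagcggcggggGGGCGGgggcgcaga
Wnt4: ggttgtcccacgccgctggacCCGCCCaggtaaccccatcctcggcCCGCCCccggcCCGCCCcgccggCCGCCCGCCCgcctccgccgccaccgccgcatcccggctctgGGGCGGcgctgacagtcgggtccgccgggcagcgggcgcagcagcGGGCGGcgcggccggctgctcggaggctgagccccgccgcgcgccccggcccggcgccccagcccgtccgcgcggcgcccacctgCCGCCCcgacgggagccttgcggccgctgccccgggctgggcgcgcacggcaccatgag
Wnt11: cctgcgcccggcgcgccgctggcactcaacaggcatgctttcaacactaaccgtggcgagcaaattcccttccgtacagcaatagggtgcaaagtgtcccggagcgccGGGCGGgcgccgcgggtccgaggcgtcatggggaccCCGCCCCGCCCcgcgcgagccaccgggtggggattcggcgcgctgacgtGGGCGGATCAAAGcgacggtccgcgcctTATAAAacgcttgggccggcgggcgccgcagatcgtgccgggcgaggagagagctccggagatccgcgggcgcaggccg
Wnt2b: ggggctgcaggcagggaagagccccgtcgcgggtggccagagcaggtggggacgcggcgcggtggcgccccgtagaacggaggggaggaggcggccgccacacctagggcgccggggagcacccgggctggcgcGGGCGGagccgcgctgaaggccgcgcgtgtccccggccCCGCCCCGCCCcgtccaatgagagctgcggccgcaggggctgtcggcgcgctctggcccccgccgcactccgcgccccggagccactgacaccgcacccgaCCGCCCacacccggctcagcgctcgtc
The Wnt11 promoter held a TCF/LEF match on the reverse strand, directly after a GC box, and a TATA box. The other 3 shown held GC boxes only. Over all 32851 promoters of the table, 3.73% held a TCF/LEF match, 5.2% an AP-1 match, 13.6% a TATA box and 35.7% a GC box. Of the 7 genes, 2 held a TCF/LEF match (Wnt11 and Wnt5b), 1 an AP-1 match (Wnt5b), 1 a TATA box (Wnt11) and all 7 a GC box. These counts are per gene and pool the several promoters of Wnt5b and Wnt11, while the shares are per promoter, so the 2 are unlike measures. The median GC content of the 10 promoters was 68.5%, against 52.7% over the table. A match is a description of these letters and not a binding site.

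Levels of different genes were compared per length, as CPM per kilobase of exon, over the 10 genes and the 9 other WNT ligand genes of the mouse. The 19 genes summed to 19.9, 19.5, 13.4 and 30.6 CPM per kilobase in BTPRZ-T replicates 1 to 4, 26.2, 27.9, 37.1 and 38.2 in BT-T, and 7.14, 7.81, 7.96 and 9.95 in N. Every tumour library thus held more WNT ligand transcript per length than any N library, and BTPRZ-T overlapped with BT-T through replicate 4. Wnt7b had the largest share in 7 of the 8 tumour libraries, with 34.7, 52.2 and 44.4% in BTPRZ-T replicates 1 to 3 and 39.1, 38.8, 43.7 and 23.8% in BT-T. In BTPRZ-T replicate 4 Wnt10a led with 28.0%. In N, Wnt2b led with 43.8, 30.5 and 43.6% in replicates 1, 3 and 4, and Wnt4 with 20.9% in replicate 2. Wnt7b took 0.303 to 1.11% in those 3 N libraries and 18.6% in replicate 2.

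By mean level per length, the order in BTPRZ-T was Wnt7b (7.19 ± 2.06 CPM per kilobase, SD, n = 4), Wnt10a (3.30 ± 3.58), Wnt2 (2.54 ± 2.80), Wnt5a (2.31 ± 0.919), Wnt4 (1.47 ± 1.01), Wnt11 (1.03 ± 0.719), Wnt2b (0.800 ± 0.235), Wnt5b (0.695 ± 0.499), Wnt6 (0.331 ± 0.346) and Wnt3 (0.0875 ± 0.115). Each gene overlapped with the next in this order. In BT-T it was Wnt7b (11.6 ± 3.17), Wnt4 (4.87 ± 1.18), Wnt2 (3.92 ± 3.00), Wnt5a (2.83 ± 0.656), Wnt11 (2.58 ± 0.156), Wnt2b (2.46 ± 0.651), Wnt5b (1.06 ± 0.102), Wnt6 (0.310 ± 0.123), Wnt10a (0.124 ± 0.221) and Wnt3 (0.0301 ± 0.0181). Here Wnt7b stood above Wnt4, Wnt2b above Wnt5b and Wnt5b above Wnt6 without overlap, and the other neighbours overlapped. In N it was Wnt2b (2.72 ± 1.40), Wnt4 (1.54 ± 0.437), Wnt5a (1.28 ± 0.852), Wnt5b (0.622 ± 0.523), Wnt6 (0.412 ± 0.330), Wnt7b (0.402 ± 0.700), Wnt2 (0.261 ± 0.307), Wnt10a (0.213 ± 0.425), Wnt11 (0.120 ± 0.110) and Wnt3 (0.0380 ± 0.0469), all neighbours overlapping.

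**Figure D3:**
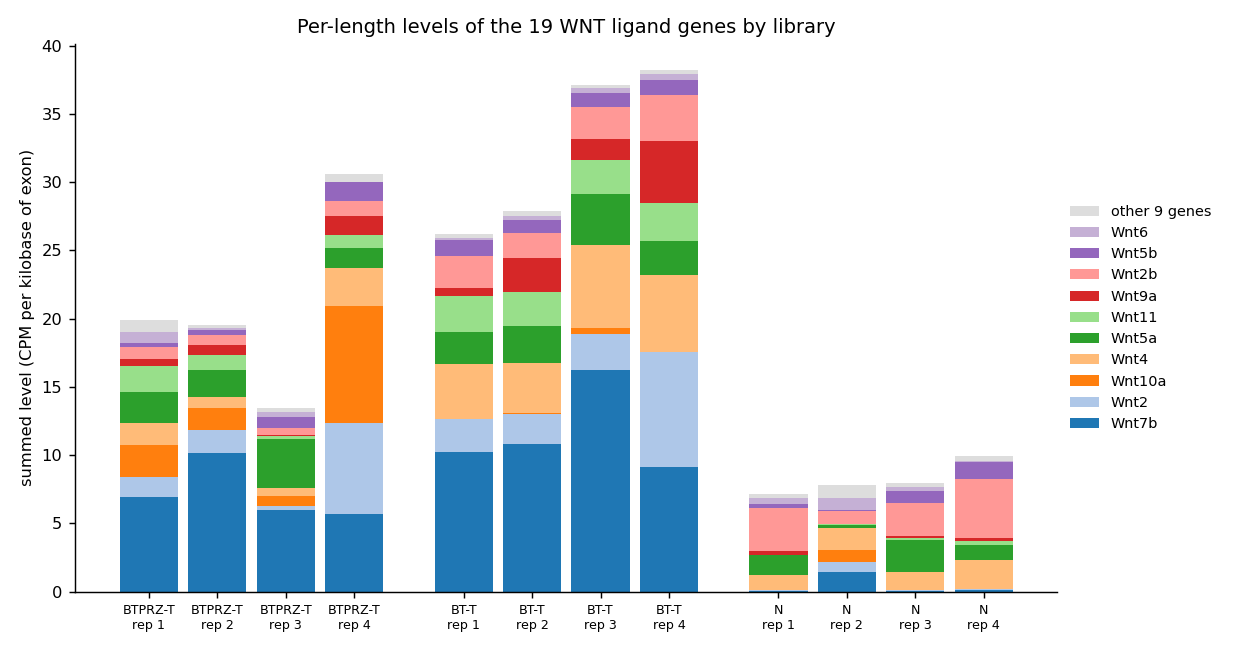
Summed level per length (CPM per kilobase of exon, y axis) of the 19 WNT ligand genes in each library, with 1 bar per library split by gene. The bars reach 13.4 to 30.6 in BTPRZ-T, 26.2 to 38.2 in BT-T and 7.14 to 9.95 in N, and the Wnt7b segment is the largest in 7 of the 8 tumour bars.

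Of the 9 other WNT ligand genes, Wnt9a alone passed the filter. It had 1.68, 2.49, 0.386 and 4.80 CPM in BTPRZ-T, 1.88, 8.37, 5.20 and 15.2 CPM in BT-T, and 0.863, 0.0677, 0.591 and 0.877 CPM in N. BT-T lay above N without overlap, and Wnt9a was called higher there (log2 fold change 3.66 ± 0.92, edgeR adjusted p = 0.0285), but not in BTPRZ-T (1.95 ± 0.87, adjusted p = 0.182). The BT-T call was lost without BT-T replicate 2, 3 or 4 (adjusted p = 0.0760, 0.0552 and 0.0976) or N replicate 1 or 3 (0.0646 and 0.0692), with limma and voom (0.0887) and with the replicate block (0.0615). Wnt7a reached 2.58 CPM in BTPRZ-T replicate 1, Wnt16 2.53 CPM in BTPRZ-T replicate 4 and Wnt10b 3.05 CPM in N replicate 2, and each stood under 1 CPM in the other 11 libraries. Wnt3a, Wnt8a and Wnt8b had 0 reads in all 12 libraries.

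Fibroblast markers were higher in the tumours beside several of these ligands. Of 10 markers, 5 were called higher in BTPRZ-T against N and 8 in BT-T against N, next to 5.66% and 5.67% of all genes. Their sum was 3869, 3206, 1959 and 8731 CPM in BTPRZ-T replicates 1 to 4, 8754, 12993, 12454 and 17130 CPM in BT-T, and 1119, 1488, 1612 and 1886 CPM in N. BTPRZ-T replicate 3, lowest of the tumours in this sum, was also lowest of them in Wnt2, Wnt2b, Wnt4 and Wnt11. Replicate 4 was highest within BTPRZ-T and within BT-T both in this sum and in Wnt2. Wnt7b was lowest in replicate 4 within BTPRZ-T (28.0 CPM) and within BT-T (44.6 CPM). Its highest tumour levels were in BT-T replicates 3 and 2, which had fibroblast sums of 12454 and 12993 CPM. Wnt5a within BTPRZ-T was highest in replicate 3 (28.1 CPM) and lowest in replicate 4 (11.4 CPM). Wnt11 was lower in BTPRZ-T replicate 4 (3.71 CPM) than in replicates 1 and 2 (7.94 and 4.64 CPM). In whole tissue, fewer cells of a type and less RNA per cell cannot be told apart, and the part of the fibroblast share in these differences was not tested.

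The other cell types were read as sums over their markers. Of all genes, 5.66% were called higher and 6.18% lower in BTPRZ-T against N, and 5.67% and 2.9% in BT-T against N. Endothelial markers (8 genes) came to 316 to 625 in BTPRZ-T, 432 to 860 in BT-T and 110 to 272 CPM in N, with 2 called higher in BTPRZ-T against N and 5 in BT-T against N. Macrophage markers (9 genes) came to 302 to 1549 in BTPRZ-T, 714 to 968 in BT-T and 152 to 468 CPM in N, with 5 and 7 called higher. Markers of subepithelial telocyte-like fibroblasts (6 genes), a known source of WNT ligands at the crypt, came to 50.4 to 79.3 in BTPRZ-T, 75.5 to 93.1 in BT-T and 61.0 to 95.5 CPM in N, with 0 called by edgeR. Markers of enteric neurons and glia (8 genes) came to 6.45 to 37.8 in BTPRZ-T, 23.4 to 65.6 in BT-T and 42.9 to 93.4 CPM in N, with 2 called lower in BTPRZ-T against N.

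**Figure D4:**
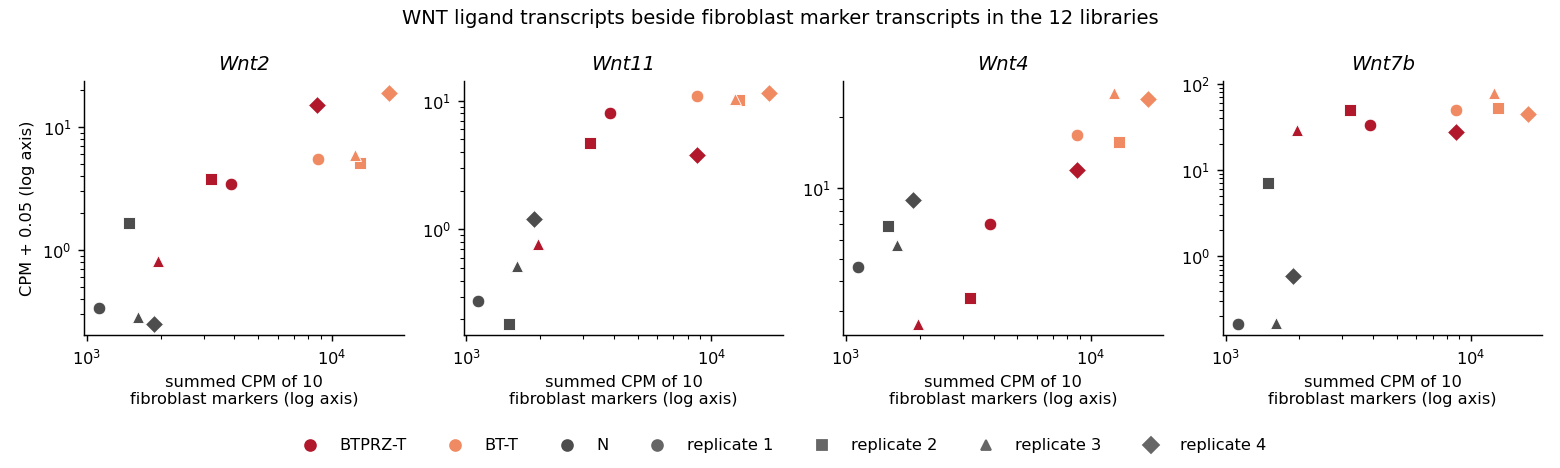
Level of Wnt2, Wnt11, Wnt4 and Wnt7b (CPM + 0.05, log y axis) against the summed CPM of 10 fibroblast markers (log x axis) in the 12 libraries. The N libraries lie at the left at 1119 to 1886 CPM and BT-T at the right at 8754 to 17130 CPM, while Wnt7b stays between 28.0 and 79.5 CPM over the whole tumour range of 1959 to 17130 CPM.

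For the members called in at least 1 comparison, the genes most like them were taken by Pearson's r of log2(CPM + 0.5) over the 12 libraries. The search covered 11399 tested genes that averaged 5 CPM or more. Predicted genes, with Gm numbers or symbols ending in Rik, were left out. The r values describe 12 libraries in 3 groups that share their group means and depth. Wnt7b was most like Krt7, a keratin of simple epithelia (r = 0.986), Hoxd13, a homeobox gene of the hind body (0.971), and Ranbp17, a nuclear transport factor (0.970). Wnt2 was most like Mfap5, a microfibril protein (0.966), Igfbp4, an IGF binding protein (0.965), and Serpinf1, a secreted serpin (0.963). Wnt11 was most like Mfap2, another microfibril protein (0.973), the ephrin receptor Epha3 (0.965) and C1rl, a complement protease-like gene (0.964). Wnt4 was most like the receptor kinase Axl (0.941), the orphan receptor Gpr153 (0.934) and Aldh1a2, an enzyme of retinoic acid synthesis (0.913). Wnt2b was most like Fblim1, a protein of cell adhesions (0.95), the thrombospondin Thbs4 (0.947) and Adam23 (0.945).

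None of the 9 genes for acylation, transport and release of WNT ligands was called by edgeR in any of the 3 comparisons with TMM scaling and all libraries. Other settings gave up to 4 calls in BTPRZ-T against N, 5 in BT-T against N and 5 in BTPRZ-T against BT-T. Calls over all genes also rose, to as many as 8211, 6156 and 7734 of 14860 with sample quality weights. Without N replicate 2 the counts were 3 in BTPRZ-T against N and 2 between the tumours, and without BTPRZ-T replicate 4 there was 1 in BT-T against N. Over all genes these fits called 4855 and 2714 of 15045, and 1709 of 15061. Their median log2 fold changes were -0.17 in BTPRZ-T against N, -0.44 in BT-T against N and 0.27 in BTPRZ-T against BT-T. Porcn, the acyltransferase, averaged 9.14 ± 2.93 CPM in BTPRZ-T, 8.98 ± 0.543 CPM in BT-T and 4.27 ± 1.60 CPM in N (SD, n = 4 each). Its edgeR adjusted p was 0.0621 in BTPRZ-T against N and 0.0816 in BT-T against N. Wls, the carrier, averaged 167 ± 22.1 CPM in BTPRZ-T, 170.1 ± 6.41 CPM in BT-T and 142 ± 21.2 CPM in N, with adjusted p of 0.502 and 0.423 against N.

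Among 18 receptors and co-receptors, 2 were called higher and 1 lower in BTPRZ-T against N, 4 higher and 1 lower in BT-T against N, and 0 in BTPRZ-T against BT-T by edgeR. Of all genes, 5.66% were called higher and 6.18% lower in BTPRZ-T against N, and 5.67% and 2.9% in BT-T against N. The medians of the receptors were -0.16, 0.29 and -0.64 in the 3 comparisons. The Frizzled receptor gene Fzd1 was higher in both tumour groups, at 101 ± 20.7 CPM in BTPRZ-T, 195 ± 35.0 CPM in BT-T and 34.6 ± 2.18 CPM in N, with log2 fold changes against N of 1.54 ± 0.22 (adjusted p = 0.000983) and 2.49 ± 0.22 (0.000185). Fzd10, another Frizzled, was also higher, at 8.48 ± 3.06 CPM in BTPRZ-T, 10.8 ± 2.76 CPM in BT-T and 1.23 ± 0.424 CPM in N (adjusted p = 0.00122 and 0.00085 against N). Fzd8 was lower in BTPRZ-T than in N, at 4.65 ± 2.94 against 19.3 ± 10.4 CPM (adjusted p = 0.0300). That call was lost without BTPRZ-T replicate 1, 3 or 4 (0.0749, 0.0688 and 0.0784) or N replicate 1, 3 or 4 (0.0733, 0.0781 and 0.0624), with voom (0.105), with BTPRZ-T and N alone (0.121) and with the replicate block (0.101). In BT-T the pseudokinase co-receptor Ptk7 averaged 105 ± 17.2 CPM, against 37.5 ± 10.2 CPM in N (adjusted p = 0.00387). Gpr124, which with Reck forms the receptor complex that reads Wnt7a and Wnt7b in brain endothelium, averaged 82.9 ± 17.1 CPM in BT-T and 23.5 ± 11.4 CPM in N (adjusted p = 0.0372). It was not called without BTPRZ-T replicate 2 (0.0517), BT-T replicate 1, 2, 3 or 4 (0.0504, 0.0985, 0.0817 and 0.0955) or N replicate 1 or 3 (0.0921 and 0.0552). The number of receptors called in BTPRZ-T against N was 9 without N replicate 2, a fit that called 4855 of all 15045 genes there. In BT-T against N it was 3 without BTPRZ-T replicate 2, BT-T replicate 1, 2 or 4, or N replicate 1 or 3. In BTPRZ-T against BT-T it was 2 without BTPRZ-T replicate 4, where 400 of 15061 genes were called. Reck itself stood at 4.37 ± 2.2 CPM in BTPRZ-T, 11.4 ± 2.56 CPM in BT-T and 8.80 ± 6.58 CPM in N and was not called.

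Of 13 secreted WNT antagonists, 10 were tested. Of these, 2 were called higher and 1 lower in BTPRZ-T against N, 6 higher and 0 lower in BT-T against N, and 1 lower in BTPRZ-T against BT-T. Of all genes, 5.66% were called higher and 6.18% lower in BTPRZ-T against N, and 5.67% and 2.9% in BT-T against N. Between the tumours 0.599% were called lower. The medians of the antagonists were 1.04, 1.96 and -1.12. The count in BTPRZ-T against N was 1 without N replicate 1. In BT-T against N it was 3 without BT-T replicate 2 or 3 or N replicate 3, 2 without BT-T replicate 4 and 1 without N replicate 1. Dkk2, which blocks the co-receptors, was higher in both, at 17.7 ± 9.38 CPM in BTPRZ-T, 23.9 ± 6.33 CPM in BT-T and 3.65 ± 1.97 CPM in N (edgeR adjusted p = 0.0182 and 0.00964), though not in BTPRZ-T without N replicate 1 (0.0514). Wif1, which binds WNT ligands directly, was also higher in both, at 11.8 ± 1.88 CPM in BTPRZ-T, 11.9 ± 3.34 CPM in BT-T and 3.66 ± 2.21 CPM in N (adjusted p = 0.0192 and 0.0231). It was not called in BTPRZ-T without N replicate 1 (0.0607) or N replicate 3 (0.05 after rounding), nor in BT-T without BT-T replicate 2, 3 or 4 (0.0527, 0.0855 and 0.0609) or N replicate 1 or 3 (0.0705 and 0.0552). With BTPRZ-T and N alone in the fit, neither Dkk2 (0.0795) nor Wif1 (0.0849) was called, and Dkk2 was also not called in BTPRZ-T with voom (0.0739) or the replicate block (0.0542). The other 4 genes called higher in BT-T were Sfrp1, Dkk3, Sfrp2 and Frzb. Sfrp1 averaged 397 ± 94.7 CPM in BT-T and 59.5 ± 3.10 CPM in N (adjusted p = 0.0172), Dkk3 104 ± 7.32 and 40.0 ± 16.7 CPM (0.0199), and Sfrp2 26.2 ± 4.71 and 3.70 ± 2.69 CPM (0.0215). Sfrp1 was not called without N replicate 1 (0.0535). Dkk3 was not called without BT-T replicate 3 or 4 (0.0540 and 0.0552) or N replicate 1 (0.0666), and Sfrp2 without BT-T replicate 2 or 4 (0.0565 and 0.0521) or N replicate 1 or 3 (0.0672 and 0.0600). Frzb, a relative of the Sfrp genes, averaged 54.8 ± 7.26 CPM in BT-T and 11.7 ± 10.8 CPM in N (edgeR adjusted p = 0.0413). It was not called without BTPRZ-T replicate 1 or 2, any single BT-T library, or N replicate 1 or 3 (0.0509 to 0.109). Sfrp5, a secreted frizzled-related protein, had 3 reads over BTPRZ-T, all in 1 library, against 284 over BT-T and 151 over N. The ratio of BTPRZ-T to BT-T was 0.0127 (95% exact counting interval 0.00260 to 0.0374), with an edgeR adjusted p of 0.0351. To N it was 0.0164 (0.00334 to 0.0488), with an adjusted p of 0.00604, and the intervals cover counting error only. The call against BT-T was lost without BTPRZ-T replicate 1, 2 or 3 (0.0717, 0.0681 and 0.109), BT-T replicate 1, 2 or 4 (0.0745, 0.114 and 0.142) or N replicate 1 or 3 (0.0664 and 0.0530), and with the replicate block (0.0947).

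In the branch without beta-catenin, 12 genes of planar cell polarity were tested. In BTPRZ-T against N, 1 was called higher and 1 lower, against 5.66% and 6.18% of all genes, and edgeR called 0 in the other comparisons. The medians were -0.22 in BTPRZ-T against N, 0.01 in BT-T against N and -0.32 in BTPRZ-T against BT-T. Vangl1, a membrane protein of the polarity complex, averaged 39.9 ± 7.07 CPM in BTPRZ-T and 17.2 ± 7.69 CPM in N (adjusted p = 0.0290). Daam1, a formin that links Dishevelled to actin, averaged 65.1 ± 17.3 CPM in BTPRZ-T and 122 ± 30.6 CPM in N (adjusted p = 0.0354). Vangl1 was not called without BTPRZ-T replicate 2, 3 or 4 (0.0568, 0.0536 and 0.0635) or N replicate 4 (0.0734). Daam1 kept its call without BTPRZ-T replicate 3 or N replicate 2 (0.0239 and 0.00278) and lost it without any other single library (0.0515 to 0.0923). With BTPRZ-T and N alone Vangl1 (0.118) and Daam1 (0.133) were not called, nor with the replicate block (0.0508 and 0.0989), nor Daam1 with no filter (0.0501). Without N replicate 2, 3 genes of this list were called in BTPRZ-T against BT-T and 1 in BT-T against N, and without BTPRZ-T replicate 4, 1 in BT-T against N. Over all genes these fits called 2714 and 2030 of 15045, and 1709 of 15061.

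Of 15 target genes of beta-catenin, 7 were called higher and 1 lower in BTPRZ-T against N, 1 higher in BT-T against N, and 0 by edgeR in BTPRZ-T against BT-T. Of all genes, 5.66% were called higher and 6.18% lower in BTPRZ-T against N, and 5.67% higher in BT-T against N. The medians of the targets were 1.17, 0.30 and 0.51. In BTPRZ-T against N 7 targets were not called. Their log2 fold changes were -0.10 (Axin2), -0.46 (Ascl2), -0.07 (Sox9), 0.16 (Ephb3), 0.54 (Ephb2), 1.21 (Lef1) and 1.39 (Tnfrsf19). The transcription factor gene Sp5 averaged 7.75 ± 5.76 CPM in BTPRZ-T and 0.218 ± 0.166 CPM in N (log2 fold change 5.11 ± 0.89, adjusted p = 0.00335). Cd44, a hyaluronan receptor, averaged 441 ± 71.9 CPM in BTPRZ-T and 155 ± 41.8 CPM in N (adjusted p = 0.00415). Apcdd1, a membrane inhibitor of the pathway, averaged 16.0 ± 5.96 CPM in BTPRZ-T and 3.73 ± 0.845 CPM in N (adjusted p = 0.00837). Nkd1, a feedback inhibitor acting on Dishevelled, went the other way, at 8.48 ± 5.81 CPM in BTPRZ-T and 35.8 ± 9.70 CPM in N (adjusted p = 0.0107). Ccnd1, the cyclin D1 gene, was higher in both, at 277 ± 59.4 CPM in BTPRZ-T, 272 ± 47.5 CPM in BT-T and 111 ± 46.4 CPM in N (adjusted p = 0.0246 and 0.0334), and was the 1 target called in BT-T. In BTPRZ-T its call was lost without BTPRZ-T replicate 2 or 4 (0.0666 and 0.0512) or N replicate 4 (0.0535). In BT-T it was lost without BT-T replicate 2, 3 or 4 (0.0799, 0.0983 and 0.0928) or N replicate 1 or 4 (0.0619 and 0.0608). With the compared groups alone the adjusted p of Ccnd1 was 0.0949 and 0.0551, with the replicate block 0.0540 and 0.0671, and with BTPRZ-T and N alone that of Nkd1 was 0.0538. The number of targets called in BTPRZ-T against N was 5 without BTPRZ-T replicate 4, and in BT-T against N it was 4 without BTPRZ-T replicate 4 or N replicate 2. In BT-T against N those 2 fits called 1709 of 15061 and 2030 of 15045 genes.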

How the data were processed

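A strand-keeping poly(A) library kit and single-end reads of 100 bases were used, per the labels' protocols. The tools named in the submitters' processing notes are bcl2fastq 2.20, STAR 2.4.2a, edgeR 3.16.5, limma and HTSeq, on mm10; for the symbols, the annotation was not given in the sources used here. Raw read counts per gene, with no normalization, were deposited by the authors. The stranded column with more reads was used (15.7M to 26.1M gene reads; on the opposite strand, 0.819 to 0.994% of that). Reads in no gene and reads that could not be given to a single gene together came to 15.1 to 23.1% of the gene reads. They were left out, and the files count 0 reads at several loci.

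The counts were filtered with filterByExpr by group and scaled by TMM, and edgeR 4.0.16 (R 4.3.3) fitted 1 mean per group over all 12 libraries (glmQLFit, robust; glmQLFTest, two-sided; Benjamini-Hochberg over 14860 genes). The common coefficient of variation was 0.501. The pipeline was tested on simulated data. Alternatives used DESeq2 1.42.0, limma 3.58.1 and 25 changes in all, including 12 fits without 1 library. Lengths and positions are from GENCODE M21.

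The members, lists and tests were chosen with earlier results of these data known. Named were all 10 genes, up to 4 called genes with the lowest adjusted p of each pathway list and comparison, other WNT ligand genes of at least 1 CPM in any library, and the 3 genes most like each called member. Porcn, Wls, Reck, Rnf43 and Znrf3, and Frzb and Wif1 in BT-T and Ccnd1 in BTPRZ-T, were named after their values were seen. So were the targets of beta-catenin that were not called.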

Additional observations from a re-analysis of the deposited data

Results flagged for a closer look

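Of 30 checks of a gene in a group of 4 libraries, 5 found the highest library further from the others than Dixon's test allows at the 95% level. That level assumes normally distributed values. The checks used CPM without logs, with several levels at or near 0, and 3 of the 5 fell on the same library. The number to be found by chance is therefore not known, and the 5 are given as a description only. In N, replicate 2 stood apart in 3 genes. It had 7.11 CPM of Wnt7b, against 0.115 to 0.540 CPM in the other 3, 2.10 CPM of Wnt10a, against 0 in the other 3, and 1.62 CPM of Wnt2, against 0.202 to 0.288 CPM. The same library had the lowest Wnt2b, Wnt5a and Wnt5b levels of its group and the most Wnt10b of all 12 libraries. In BT-T, replicate 4 stood apart with 19 CPM of Wnt2, against 5.02 to 5.91 CPM in the other 3, and replicate 3 with 1.12 CPM of Wnt10a, against 0 to 0.0507 CPM.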

How the results depend on the processing

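Each result was recomputed under 13 other settings and without each of the 12 libraries. The 4 calls in BTPRZ-T against N came to 2 with limma and voom, 0 with the 2 compared groups alone in the fit and 1 to 5 without single libraries. The 2 with limma and voom were Wnt7b and Wnt10a (adjusted p = 0.035 for Wnt10a). Wnt10a was not among the 4, and Wnt2, Wnt2b and Wnt11 were not called there. The 4 calls in BT-T against N came to 2 to 4 without single libraries and kept within 1.5 times under the other settings. The 0 calls in BTPRZ-T against BT-T came to 2 with DESeq2, 1 with limma and voom, 6 with voom and sample quality weights, 2 with the compared groups alone, 2 without the 3 libraries with the fewest genes, and 0 to 3 without single libraries. DESeq2 gave no adjusted p for Wnt7b. The cause of these differences was not tested.

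Replicate numbers are shared over groups, but the labels do not say that they pair the samples, and same-numbered libraries correlated in their deviations at -0.415 to 0.397, with 5 of 12 pairs over 0.1. With the number as a block, the calls were 2, 4 and 0 in the 3 comparisons, and over all genes 1160, 945 and 1, against 1760, 1274 and 112.

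Over all genes, DESeq2 called 3048, 2394 and 1217, sample quality weights 8211, 6156 and 7734, and the compared groups alone 647, 1404 and 1568. Without the 3 libraries, 5311, 4359 and 3723 were called. Between tumours, voom called 266 and removing the length trend 199.

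Directions that reversed were all of differences that were not called. In BTPRZ-T against N, Wnt4 was 0.041 with upper quartile factors and -0.58 to 0.19 without single libraries, reversing without BTPRZ-T replicate 2 or 3 or N replicate 4. Its largest departure was -1.03 without the 3 libraries. Wnt5b was -0.39 with sample quality weights, -0.51 without the 3 libraries, and -0.40 to 0.71 without single libraries, reversing without BTPRZ-T replicate 4 or N replicate 1 or 2. Wnt6 was 0.038 without the 3 libraries and -1.22 to 0.31 without single libraries, reversing without BTPRZ-T replicate 4 or N replicate 2. For BT-T against N, Wnt10a was 0.19 with voom, 2.17 with weights, 5.69 without the 3 libraries and -3.82 to 5.65 without single libraries. The 5.69 and 5.65 come from fits without N replicate 2, where N held 0 reads, and are no bounds. Wnt6 was 0.11 with the replicate block, 0.28 without the 3 libraries and -0.74 to 0.23 without single libraries, and Wnt2b -0.42 to 0.18 without single libraries. Between tumours, Wnt6 was -1.07 with voom, -0.87 with weights, -0.0017 with the groups alone, -0.57 with the replicate block, -0.20 without the length trend, -0.24 without the 3 libraries, and -0.81 to 0.45 without single libraries. Wnt5a was 0.087 without the length trend, and Wnt2 was -1.78 to 0.067 without single libraries, reversing without BT-T replicate 4.

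Over these 25 alternatives, counts of called targets of beta-catenin ranged over 3 to 11 in BTPRZ-T against N, receptors over 2 to 12 and antagonists over 1 to 8. In BT-T against N the ranges were 0 to 9, 3 to 10 and 1 to 7. Between tumours they were 0 to 8, 0 to 11 and 0 to 8. Planar polarity genes ranged over 0 to 8, 0 to 4 and 0 to 6 in the 3 comparisons, and genes of acylation and transport over 0 to 4, 0 to 5 and 0 to 5. Over all genes the same alternatives called 647 to 8211, 624 to 6156 and 0 to 7734. By the longest transcript in place of all exons, Wnt7b stood at 10.4 CPM per kilobase in BTPRZ-T and 16.7 in BT-T. At this depth, Wnt3, Wnt6 and Wnt10a in BT-T and N rest on few reads.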
